A study of Mus musculus with 4 samples.

Results

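The genes described here mark the non-immune cells that surround macrophages in the brain. They were 32 marker genes, of which 7 belong to astrocytes, 11 to the oligodendrocyte lineage, 9 to endothelium and 5 to mural cells, the pericytes and smooth muscle of vessel walls. A merged peak (an interval of accessible chromatin) was given to a gene if its centre lay inside the gene, or if the gene was the nearest protein-coding one within 100000 bp. By this rule 137 of the 74695 merged peaks belonged to the 32 genes, and 5 of the 137 also lay inside a second gene. Macrophages sorted from mouse brain parenchyma gave 4 ATAC-seq libraries, 2 of MDM and 2 of YSM. The series title writes of monocyte-derived macrophages, which was taken as the meaning of MDM, while YSM is written out in no label. Every library, of either group, had the genotype Ms4a3-Ai9 and the treatment DR-3x, a term the labels leave unexplained. Ms4a3 is expressed by progenitors of granulocytes and monocytes, and Ai9 is an allele that turns on a red reporter after Cre recombination. Neither an age nor the number of animals behind a library was given in the sources used here.

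Astrocytes support neurons and cover vessels with their endfeet, oligodendrocytes wrap axons in myelin, endothelial cells form the blood-brain barrier, and mural cells contract or stabilise the vessel. None of these classes belongs to the sorted population. Some of the 32 genes are nevertheless also known from myeloid cells: Pecam1 and Anpep encode surface proteins of leukocytes, Flt1 a VEGF receptor that monocytes carry, and Mbp has an upstream start for golli transcripts that immune cells make. In bulk libraries a few contaminating cells and a weakly open site in many cells cannot be told apart.

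The peaks carry no value per library. Each merged peak gives the number of library-level peaks, here called subpeaks, that were combined into it. A peak of 3 or fewer subpeaks therefore lacked a call in some library. With 4 or more, every library can have had one. Which library gave a call is not recorded in the intervals used here, so no replicate error and no test across libraries could be had, and all counts below are descriptions. A list of 25 macrophage genes was set beside the members for comparison. By the same rule 25 of the 25 had a peak, as did 84.4% of the members and 70.3% of all coding genes. Having a peak therefore does not check the labelled cell type.

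The reference sequence in front of 9 members is shown because peaks covered 4 of these starts and left the other 5 uncovered. Each run gives the 250 bases before the start site from RefSeq (GRCm38.p6, the primary chromosomes of mm10), read 5′ to 3′ on the gene's strand, with each CG pair in capitals. The first 4, of a folate enzyme of astrocytes, a brain aldolase, the main VEGF receptor of endothelium and an aminopeptidase of pericytes and myeloid cells, were covered by a peak over 250, 194, 250 and 178 of their bases.
Aldh1l1, chr6:90550543-90550792, plus strand: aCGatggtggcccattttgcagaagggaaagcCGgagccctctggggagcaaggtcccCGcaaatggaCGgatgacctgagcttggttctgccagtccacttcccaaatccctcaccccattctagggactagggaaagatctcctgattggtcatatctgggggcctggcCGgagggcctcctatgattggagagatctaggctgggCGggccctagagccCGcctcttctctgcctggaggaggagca
Aldoc, chr11:78322823-78323072, plus strand: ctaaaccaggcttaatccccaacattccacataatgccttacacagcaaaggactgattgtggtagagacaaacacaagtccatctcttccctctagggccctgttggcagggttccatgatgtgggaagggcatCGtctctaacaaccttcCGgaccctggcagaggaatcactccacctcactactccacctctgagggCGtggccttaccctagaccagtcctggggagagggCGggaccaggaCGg
Kdr, chr5:75978456-75978705, minus strand: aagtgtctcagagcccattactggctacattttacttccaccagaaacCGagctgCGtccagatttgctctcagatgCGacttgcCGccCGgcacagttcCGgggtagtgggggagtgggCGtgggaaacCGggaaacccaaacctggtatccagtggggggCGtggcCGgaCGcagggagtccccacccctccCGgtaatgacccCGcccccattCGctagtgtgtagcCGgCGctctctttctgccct
Anpep, chr7:79848211-79848460, minus strand: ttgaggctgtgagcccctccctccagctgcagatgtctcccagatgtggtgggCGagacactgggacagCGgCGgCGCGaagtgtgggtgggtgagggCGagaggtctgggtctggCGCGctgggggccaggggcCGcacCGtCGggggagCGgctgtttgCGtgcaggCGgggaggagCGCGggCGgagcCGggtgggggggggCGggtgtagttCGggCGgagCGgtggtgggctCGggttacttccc
The next 5 had no base under a peak. They belong to the oligodendrocyte transcription factor gene Olig2, the astrocyte filament gene Gfap, the myelin surface protein gene Mog, the smooth muscle actin gene Acta2 and the angiopoietin receptor gene Tek.
Olig2, chr16:91225300-91225549, plus strand: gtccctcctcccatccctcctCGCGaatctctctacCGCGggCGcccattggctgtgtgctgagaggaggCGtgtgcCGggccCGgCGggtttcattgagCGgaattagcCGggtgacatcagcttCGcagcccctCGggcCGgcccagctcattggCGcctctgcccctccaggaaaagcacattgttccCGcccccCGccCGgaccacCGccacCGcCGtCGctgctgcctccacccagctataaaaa
Gfap, chr11:102897201-102897450, minus strand: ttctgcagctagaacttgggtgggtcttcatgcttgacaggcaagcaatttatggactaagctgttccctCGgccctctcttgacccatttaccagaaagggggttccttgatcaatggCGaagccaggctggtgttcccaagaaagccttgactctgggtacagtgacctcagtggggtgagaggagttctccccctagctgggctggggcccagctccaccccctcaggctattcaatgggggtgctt
Mog, chr17:37023399-37023648, minus strand: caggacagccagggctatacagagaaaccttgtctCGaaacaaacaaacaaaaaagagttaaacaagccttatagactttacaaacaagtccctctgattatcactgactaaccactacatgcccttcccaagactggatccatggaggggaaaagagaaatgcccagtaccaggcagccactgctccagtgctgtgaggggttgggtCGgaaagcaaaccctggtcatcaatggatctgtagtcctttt
Acta2, chr19:34255374-34255623, minus strand: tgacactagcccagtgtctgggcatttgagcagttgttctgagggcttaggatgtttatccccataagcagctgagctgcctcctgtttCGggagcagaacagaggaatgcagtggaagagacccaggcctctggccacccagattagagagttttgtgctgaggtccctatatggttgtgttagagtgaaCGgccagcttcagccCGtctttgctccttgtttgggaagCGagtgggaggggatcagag
Tek, chr4:94739039-94739288, plus strand: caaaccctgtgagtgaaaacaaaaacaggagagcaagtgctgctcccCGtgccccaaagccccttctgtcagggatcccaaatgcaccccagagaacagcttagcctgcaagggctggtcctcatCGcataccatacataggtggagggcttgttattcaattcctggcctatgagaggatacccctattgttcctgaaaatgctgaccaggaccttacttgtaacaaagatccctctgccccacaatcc

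The ratio of observed to expected CG pairs differed widely among the covered starts. It was 0.32 for Aldh1l1 and 0.27 for Aldoc, against 0.68 for Kdr and 0.80 for Anpep. Among the uncovered starts it was 0.82 for Olig2, the highest of the 9, and 0.10 to 0.23 for Gfap, Mog, Acta2 and Tek. The median over 21263 starts of coding genes was 0.53, with quartiles of 0.22 and 0.80. These 9 are examples. Over windows of 300 bases that run to 50 bases past the start, a peak overlapped 81.0% of the coding starts with a ratio of 0.6 or more and 20.7% of those below, and the median ratio was 0.79 for overlapped starts and 0.25 for the others. A peak also overlapped such windows at Fgfr3 (0.73 at its overlapped start) and Cnp (0.64). No peak overlapped them at Flt1 (0.78), Cspg4 (0.63), Olig2 (0.82) or a second start of Fgfr3 (0.78), all with a ratio of 0.6 or more. The start table held 24 of the 32 members (75%), below the 80% set for a summary over a gene list, so no value over the members is given. The GC box GGGCGG, which itself holds a CG pair, was found on either strand before Aldh1l1, Aldoc, Kdr, Anpep and Olig2, and in 42.6% of all such windows. GAGGAA, the core that PU.1 shares with other ETS factors, was found before Aldoc and Acta2 (22.2% of all windows), and the ETS core CCGGAA before Aldoc and Kdr (15%). TATAAA was found before Olig2 (11.6%) and the SOX core ACAAAG before Tek (14.9%). The E-box CACGTG, the AP-1 element TGANTCA and CATATG were found in 0 of the 9 windows, against 6.63%, 6.13% and 2.91% of all windows. No match of 1 of these motifs overlapped a match of another in the 9 windows.

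Sites were spread unevenly over the members. Of the 32 genes, 27 had at least 1 site, and 5 had none. The median was 2.5 sites per gene with quartiles of 1 and 5, against a median of 2 and quartiles of 0 and 4 over all 21887 protein-coding genes, of which 70.3% had a site. Mbp, Flt1 and Kdr together held 53 of the 137 sites, 11 genes had 1 or 2, and 13 had 3 to 10. Longer genes can collect more peaks, so each member was set beside the coding genes of like length, from 1.5 times shorter to 1.5 times longer. In that comparison 19 members had more sites than the median, 3 had as many and 10 had fewer. The same split over all coding genes was not computed, so these counts do not show an excess at the members.

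**Figure D1:**
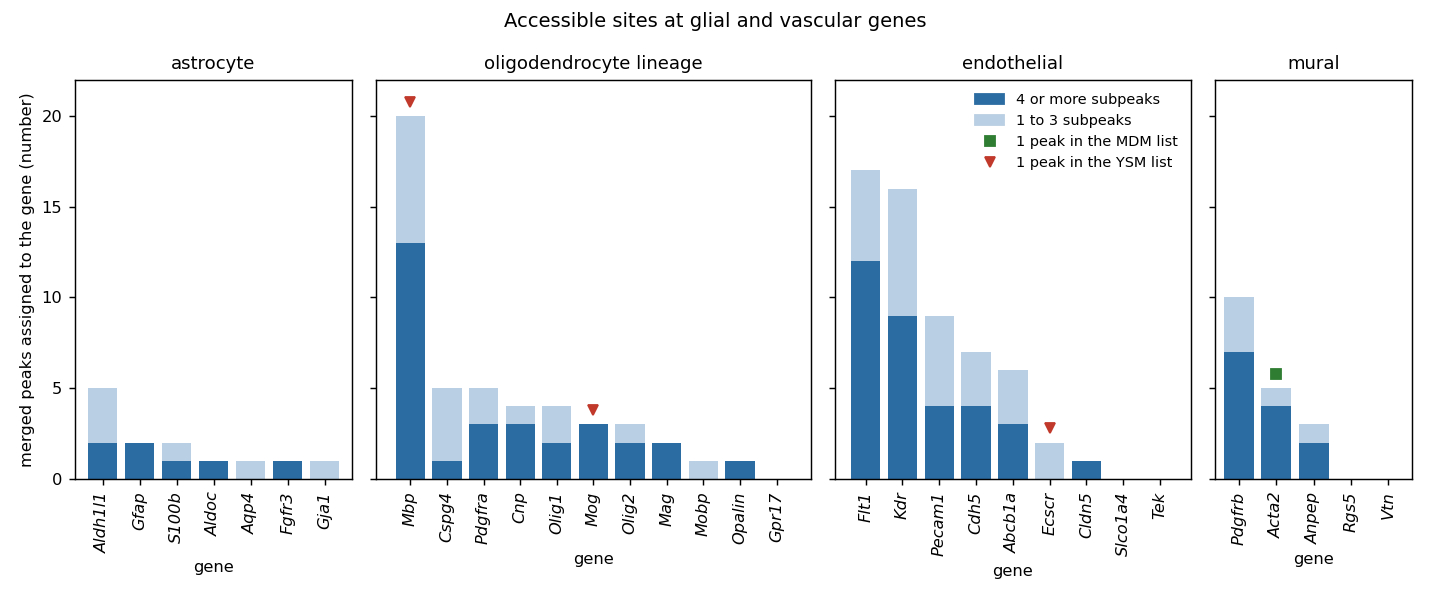
Number of merged peaks assigned to each of the 32 genes, by cell class, with peaks of 4 or more subpeaks in dark blue and peaks of 1 to 3 subpeaks in light blue; a square marks a gene with 1 peak in the MDM list and a triangle a gene with 1 in the YSM list. Mbp (20), Flt1 (17) and Kdr (16) stand above all other genes, and Gpr17, Slco1a4, Tek, Rgs5 and Vtn have no bar.

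The authors' differential lists, each named for a group and with no value or direction stated for a peak, touched 4 members. The MDM list held 1 member peak, at Acta2, and the YSM list held 3, at Mbp, Mog and Ecscr. These were 0.730% and 2.19% of the 137 peaks. Of all merged peaks, 0.145% were MDM-listed and 1.48% YSM-listed. By gene, 1 and 3 of the 27 members with a site were touched, where 0.539% and 4.27% of the 15389 coding genes with a site were. Counts of 1 and 3 are too small to set these shares apart from the background. No member held more than 1 listed peak, and none of the 7 astrocyte members held any, although further astrocyte genes did, as given below.

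Acta2 (NCBI gene 11475, chr19:34240336-34255585, minus strand) encodes the actin of vascular smooth muscle. Its MDM-listed peak was at chr19:34270321-34270548, 228 bp wide with 4 subpeaks. It lay 15061 bp upstream of the start site, between Acta2 and Fas, the death receptor gene, which was 20213 bp away on the other side. When genes of every annotated kind were considered, the peak lay inside the long non-coding RNA gene Gm31355 and no longer counted for Acta2. The peak next to the Acta2 start, at chr19:34254329-34254786, had its centre 816 bp inside the gene from the start, was 458 bp wide, and combined 5 subpeaks. It was in neither list. The remaining Acta2 sites were 2 inside the gene with 4 subpeaks each and 1 upstream with 2.

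Mog (NCBI gene 17441, chr17:37010740-37023398, minus strand) encodes a glycoprotein of the outer myelin surface. Its YSM-listed peak was at chr17:37028764-37028977, 214 bp wide with 4 subpeaks, 5472 bp upstream of the start site. The next gene on that side, Gabbr1, a GABA receptor subunit gene, was 17096 bp away. A pair of peaks lay just inside the gene, at chr17:37022543-37022757 and chr17:37022788-37023072, 30 bp apart. Their centres were 748 and 468 bp from the start, and each had 4 subpeaks. They were in neither list, so at Mog the upstream peak was YSM-listed and the peaks by the start were not.

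Mbp (NCBI gene 17196, chr18:82475091-82585637) encodes the main basic protein of myelin as well as the golli proteins. It had 20 sites, more than 98.1% of coding genes, where genes of like length had a median of 5. Of these, 15 were inside the gene and 5 below its lower coordinate. The sites were 201 to 487 bp wide, with a median of 4 subpeaks, and 13 of the 20 had 4 or more. A pair with 4 subpeaks each lay at the lower end, at chr18:82474950-82475343 and chr18:82475740-82476030. No start was given for Mbp, so this pair was not assigned to the start of a myelin or a golli transcript. The highest subpeak number of the locus was 6, at chr18:82469314-82469800, outside the gene, and at chr18:82504995-82505392, inside it. The YSM-listed peak, at chr18:82559133-82559363, had 3 subpeaks and lay 84157 bp into the gene from its lower end. It was 1 of 20, and the other sites of the gene were in neither list. Most merged peaks were likewise unlisted, with 1.48% YSM-listed and 0.145% MDM-listed, so this does not set Mbp apart. The long non-coding RNA gene Gm52337 also contains the YSM-listed peak.

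Ecscr (NCBI gene 68545, chr18:35713086-35722413) encodes a surface protein that modulates endothelial chemotaxis. It had 2 sites. The YSM-listed one, at chr18:35721231-35721476 inside the gene, had 2 subpeaks, and the other, at chr18:35722288-35722615 across the higher end, had 3. At both sites, then, at least 1 library lacked a call. Over the whole YSM list 28.4% of peaks had 4 or more subpeaks, against 57.7% of all merged peaks and 88.0% of the MDM list. A low number was thus common in the YSM list. Beyond these genes, a YSM-listed peak lay 20148 bp from Aldh1l1, but it was inside Slc41a3, a magnesium transporter gene, and was assigned to that gene.

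**Figure D2:**
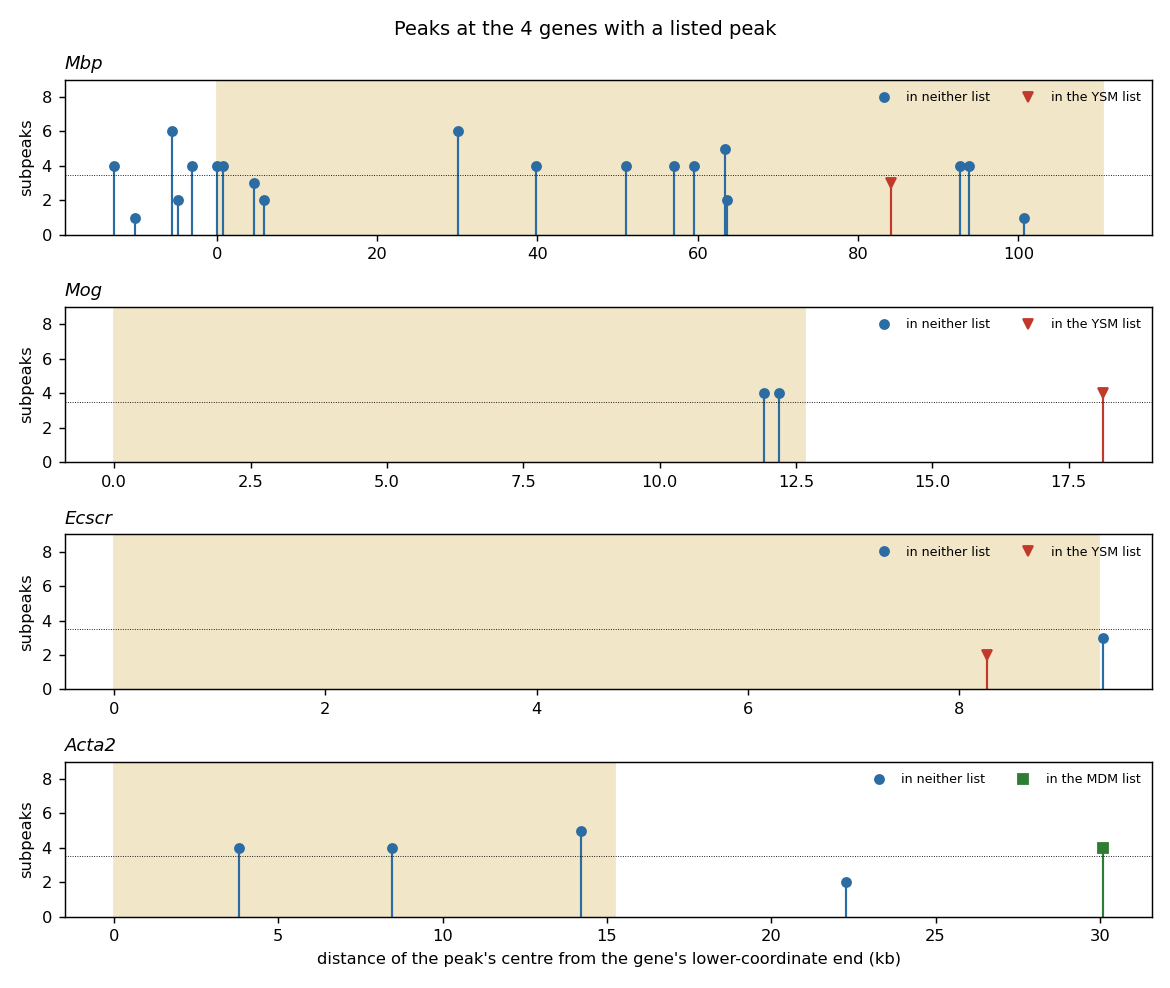
Peaks at Acta2, Ecscr, Mbp and Mog by distance of the peak's centre from the gene's lower-coordinate end (kb), with the subpeak number as height; the shaded span is the gene and the dotted line separates 3 from 4 subpeaks. The MDM-listed peak of Acta2 (green square) and the YSM-listed peak of Mog lie outside the gene, and those of Mbp and Ecscr (red triangles) lie inside.

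Astrocyte genes had few sites in number, though each had at least 1. The 7 genes held 13 sites, with a median of 1 per gene. Their median length was 13.1 kb, against 50.8 kb for endothelial genes and 17.2 kb for all coding genes. Sites inside genes were 0.664 per 10 kb for astrocyte genes and 0.438 for all coding genes. That value was 1.11 for oligodendrocyte lineage, 0.403 for endothelial and 0.959 for mural genes. Aldh1l1 had 5 sites, and its start peak, at chr6:90550485-90550956, was 472 bp wide with 6 subpeaks. The other 4 lay inside the gene, and 3 of those had a single subpeak. Gfap had 2 sites, with 4 subpeaks inside the gene, 3963 bp from the start (chr11:102893090-102893385), and with 5 subpeaks 3830 bp upstream of the start (chr11:102900863-102901198). No peak lay within 1000 bp of its start.

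The single sites of Aldoc and Fgfr3, a fibroblast growth factor receptor gene, were both at a start, at chr11:78322879-78323246 and chr5:33721716-33722040, and had 4 subpeaks each. The centre of the Aldoc peak was also 605 bp from Spag5 on the other side. S100b, a calcium-binding protein gene, had 2 sites, at 4632 bp upstream with 2 subpeaks (chr10:76249068-76249340) and inside the gene with 4 (chr10:76257985-76258191). Gja1, the main astrocyte connexin gene, had 1 site of 1 subpeak, 770 bp from the start (chr10:56377970-56378170). The single site of Aqp4, the endfoot water channel gene, had 3 subpeaks and lay 97643 bp from the gene, close to the 100000 bp limit.

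The oligodendrocyte lineage held 48 sites at 10 of 11 genes. The 6 genes of mature cells held 31, of which 20 were at Mbp. Cnp, which encodes a myelin phosphodiesterase, had a start peak of 4 subpeaks (chr11:100574948-100575249) and 3 further sites, all 3 of which also lay inside Dnajc7. Mag, an adhesion protein gene of the inner myelin layer, had 6 subpeaks at chr7:30908936-30909174 inside the gene and 4 at a peak 2428 bp upstream. Opalin, a myelin membrane protein gene, had 1 site with 4 subpeaks, and the myelin gene Mobp had 1 with 3 subpeaks, 9889 bp downstream.

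The transcription factor genes Olig1 and Olig2, which specify the lineage, lie 41091 bp apart and held 7 sites. Olig2 had 6 subpeaks at chr16:91222969-91223444, 2344 bp upstream of its start. The Olig1 peaks at the gene itself had 2 subpeaks (chr16:91269715-91269939) and 1 subpeak (chr16:91270032-91270232), while its 2 peaks on the side of the interferon receptor gene Ifnar2 had 4 each. Among genes of precursor and committed cells, the growth factor receptor gene Pdgfra and the proteoglycan gene Cspg4 had 5 sites each. Those of Pdgfra, between chr5:75143210-75143488 and chr5:75156923-75157208, had up to 5 subpeaks and 3 of them 4 or more. Those of Cspg4, between chr9:56870708-56870908 and chr9:56906837-56907037, had up to 4, and 1 of them had 4. The receptor gene Gpr17 had none. None of the 3 precursor genes had a peak at a start, although for Gpr17 the table gave no start and either end was read.

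Endothelial genes held 58 sites at 7 of 9 genes, with a median of 6. The order of this class and the oligodendrocyte lineage by number of sites depended on the assignment. The lineage had more with any gene within 50 kb (80 endothelial and 113 lineage sites), with the nearest gene up to 50 kb (47 and 48), with centres inside the gene (28 and 33) and with genes of every annotated kind (41 and 45). Flt1 (chr5:147561604-147726438) had 17, more than 97.1% of coding genes, against a median of 6 at like length, and 12 had 4 or more subpeaks. Of the 17, 10 lay inside Flt1 and 7 upstream. A group of 5 peaks lay 16774 to 32776 bp upstream of its start site. The one with the most subpeaks, at chr5:147758033-147758543, combined 8, the highest of all 137 member peaks. Within 1000 bp of the Flt1 start lay a peak of 3 subpeaks (chr5:147725094-147725386) and one of 4 (chr5:147725516-147725916).

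Kdr (chr5:75932827-75979072) had 16 sites against a median of 3 at like length. Only 3 of the 16 lay inside the gene, or 0.649 per 10 kb against 0.438 for all coding genes. The others lay outside, and matching on gene length does not account for the width of the gaps beside Kdr. Its start peak, chr5:75978258-75978760, was 503 bp wide with 6 subpeaks. A peak of 4 subpeaks lay 888 bp upstream of the start, at chr5:75979242-75979444. Downstream of the gene, in the 276104 bp that separate it from the stem cell factor receptor gene Kit, were 8 of the 16 sites, and 4 of these had 4 subpeaks. Kit itself was assigned 0 peaks. Pecam1, an adhesion receptor gene of endothelium and leukocytes, had 9 sites, of which 4 had 4 subpeaks. The peak nearest its higher end, 119 bp inside the gene (chr11:106715062-106715262), had a single subpeak.

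Cdh5, the endothelial cadherin gene, had 7 sites, of which 4 had 4 subpeaks, and none within 1000 bp of either end. Abcb1a, an efflux pump gene of the blood-brain barrier, had 6, all of them inside the gene between 55340 and 169412 bp from the start and 2 of them also inside Rundc3b. Cldn5, the tight-junction claudin gene, had 1 site of 4 subpeaks, 43486 bp upstream. The organic anion transporter gene Slco1a4 and Tek had none. Tek spans 136 kb, and 14.6% of coding genes of like length had no site. The peak nearest to Tek lay 104219 bp away, and the one nearest to Slco1a4 489454 bp.

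Mural genes held 18 sites at 3 of 5 genes. Pdgfrb (chr18:61045127-61085067), the receptor gene that recruits pericytes, had 10, against a median of 3 at like length, of which 8 were inside and 7 had 4 subpeaks. One of them, chr18:61045093-61045328, lay across the lower end of the gene. Only 20504 bp separate Pdgfrb from Csf1r, the receptor gene on which macrophages depend. That gap held 3 peaks, of which the 2 assigned to Pdgfrb were 5715 and 6011 bp beyond it, each with 4 subpeaks. Which of the genes such peaks act on was not tested.

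Anpep had 3 sites, with 4 subpeaks at the start (chr7:79848131-79848388) and 6 inside the gene, 1439 bp from the start (chr7:79846593-79846949). Rgs5, a pericyte regulator of G-protein signalling, and Vtn, the vitronectin gene, had none. The peak nearest to Vtn was 1286 bp away and belonged to Sarm1, and the one nearest to Rgs5 was 123919 bp away.

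**Figure D3:**
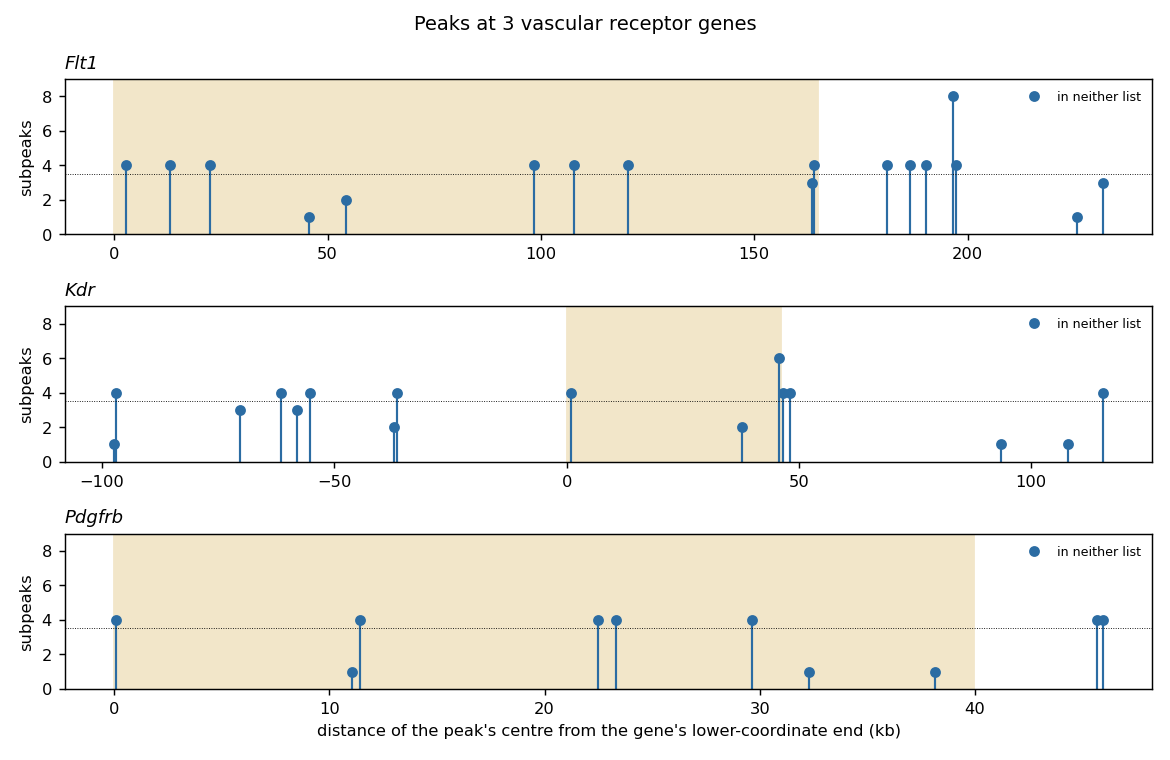
Peaks at Flt1, Kdr and Pdgfrb by distance of the peak's centre from the gene's lower-coordinate end (kb), with the subpeak number as height; the shaded span is the gene and the dotted line separates 3 from 4 subpeaks. None is in a list, the peak of 8 subpeaks lies outside Flt1, and 8 of the 16 Kdr peaks lie at negative distances, on the side of Kit.

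The share of sites with 4 or more subpeaks was close to that of the whole list. Of the 137 sites, 83 (60.6%, 95% Wilson interval 52.2 to 68.4%) had 4 or more, against 57.7% of all merged peaks. By class the share was 53.8% for astrocyte (29.1 to 76.8%), 62.5% for oligodendrocyte lineage (48.4 to 74.8%), 56.9% for endothelial (44.1 to 68.8%) and 72.2% for mural genes (49.1 to 87.5%). These intervals, which cover counting error only and take peaks as independent, all contained the share of the whole list. A single subpeak was found for 25 sites (18.2%), against 20.3% of all merged peaks. Near a gene end 16 of 23 member sites (69.6%) had 4 or more subpeaks, against 73.8% of all peaks there. Inside genes 57.8% of member sites had, against 52.7%, and outside genes 60.0%, against 54.2%.

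Further genes of the same classes gave other values. Another 48 genes of these classes had a site in 29 cases (60.4%), and 41.6% of their 190 sites had 4 or more subpeaks (34.8 to 48.7%). Of these sites 0 were MDM-listed and 12 YSM-listed. Astrocyte genes held 9 of the 12, with 7 at the glutamate transporter gene Slc1a3 and 2 at the bicarbonate transporter gene Slc4a4. These 9 were 15.5% of the 58 sites of the further astrocyte genes, where 1.48% of all merged peaks were YSM-listed. With 7 of the 9 at Slc1a3, that share describes mainly 1 gene and is not a rate over astrocyte genes. The endothelial gene Emcn, the mural gene Myl9 and the oligodendrocyte gene Enpp2 held 1 each. Among 25 neuronal genes 15 had a site, 43.6% of 55 sites had 4 or more subpeaks (31.4 to 56.7%), and 0 were listed. At the background of 1.48%, 55 sites are too few to read this 0 as a lack. Among 25 macrophage genes the share was 60.9% of 174 sites (53.5 to 67.9%), and 7 were YSM-listed, all at Sall1. No test was run on these differences.

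**Figure D4:**
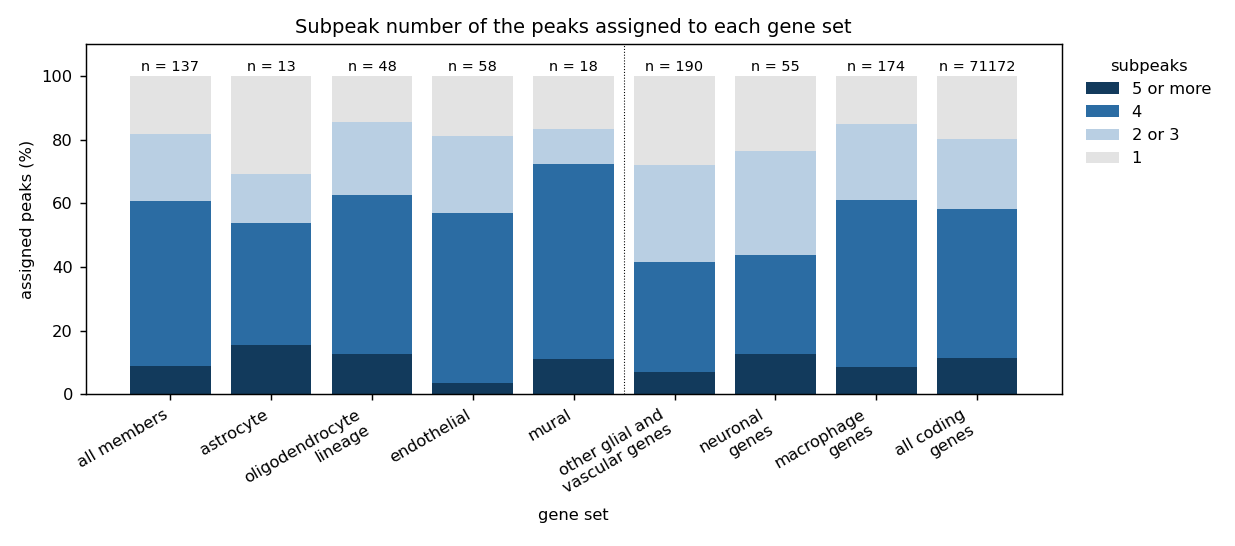
Share of assigned peaks (%) with 1, 2 or 3, 4, and 5 or more subpeaks for the 32 members, each cell class, another 48 glial and vascular genes, 25 neuronal genes, 25 macrophage genes and all coding genes, with the number of peaks above each bar. Members (60.6% with 4 or more) lie near both all coding genes (58.2%) and macrophage genes (60.9%), and above the other glial and vascular genes (41.6%).

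A peak was within 1000 bp of the start, or of either end for the 8 members without a start in the table, in 15 of 32 members (46.9%). By the same rule it was in 23 of 25 macrophage genes (92.0%), 4 of 25 neuronal genes (16%), 16 of the 48 further glial and vascular genes (33.3%) and 57.8% of all coding genes. By class it was 4 of 7 astrocyte, 4 of 11 oligodendrocyte lineage, 4 of 9 endothelial and 3 of 5 mural genes. The 15 members were Aldh1l1, Aldoc, Fgfr3, Gja1, Cnp, Mbp, Mog, Olig1, Ecscr, Flt1, Kdr, Pecam1, Acta2, Anpep and Pdgfrb. The other 17 members, among them Gfap, Aqp4, Cldn5, Cdh5, Tek and Rgs5, had none. With only peaks of 4 or more subpeaks, the count was 11 members. By class it was 3 astrocyte, 3 oligodendrocyte lineage, 2 endothelial and 3 mural genes. Gja1 had a lower number at its start, and Olig1, Pecam1 and Ecscr had lower numbers at their ends.

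**Figure D5:**
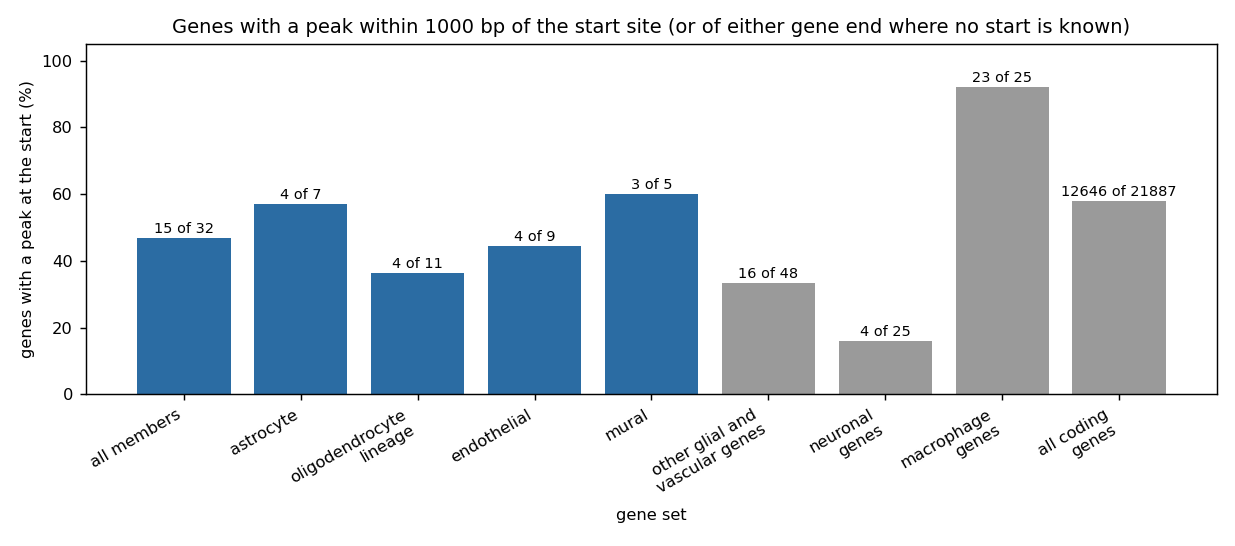
Share of genes (%) with a peak within 1000 bp of the start site, or of either gene end where the table gives no start, in the same gene sets, with counts above the bars. The members (46.9%) lie below all coding genes (57.8%) and far below macrophage genes (92.0%), and above neuronal genes (16%).

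Some sites were close neighbours. Within 13 members there were 24 pairs of successive peaks of the same gene at most 1000 bp apart, with gaps down to 22 bp, at Aldh1l1. With such peaks joined, the 137 sites became 113, with 15 at Mbp, 15 at Flt1 and 13 at Kdr. At Ecscr the YSM-listed and the unlisted peak, 811 bp apart, became 1.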

How the data were processed

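Reads of the 4 ATAC-seq libraries were trimmed with Trimmomatic 0.39, aligned with Bowtie2 2.2.5 to mm10 and processed with Picard and HOMER, per the submitters' processing notes. Peaks of the 4 libraries were combined with mergePeaks, per the file headers. The authors deposited this merged list and 2 differential lists, YSM (1104 peaks) and MDM (108), with thresholds that no label states. The deposited score column has no stated meaning and was not used. Counts and depth per library were not used here, so the precision of the calls is unknown, and the lists give no replicate error.

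Peaks were assigned with Python 3.11.15 and pandas 2.3.3 to 21887 protein-coding genes of RefSeq GRCm38.p6, in which all 32 members were matched. A listed peak had to have the coordinates of a merged peak, which held for all 1104 and 108. Start sites and sequences came from the RefSeq table, which held 24 members. Aqp4, Mbp, Olig1, Gpr17, Pecam1, Cdh5, Ecscr and Pdgfrb had no entry, so either gene end was read for them. A motif match was sought on both strands of the 250 bases before a start. The scripts were tested on simulated data. The members and lists were chosen with earlier results of these data known. Every member is named, with coordinates for listed peaks, peaks at starts and peaks of 6 or more subpeaks, and with ranges or counts for most others. Genes of the further lists are named only where they hold a listed peak. Alternatives changed the assignment rule, distance, subpeak minimum and windows.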

Additional observations from a re-analysis of the deposited data

How the results depend on the processing

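Of 121 values recomputed for 22 results, 98 stayed near the reported value, 17 moved down and 6 moved up. A count or median stayed near if it was within 1.5 times the reported one, and a share if it lay within the reported 95% interval. With any gene within 50 kb allowed, so that a peak counts for several genes, the members held 287 sites, and astrocyte, oligodendrocyte lineage, endothelial and mural genes 34, 113, 80 and 60. With peak centres inside the gene only, there were 81 sites in all, 8 at astrocyte, 33 at oligodendrocyte lineage, 28 at endothelial and 12 at mural genes, and the MDM list held 0, as it did with genes of every annotated kind. With only peaks of 4 or more subpeaks, 83 sites were left, with 7 astrocyte, 30 oligodendrocyte lineage, 33 endothelial and 13 mural ones, 1 YSM-listed peak, and 2 endothelial genes with a peak at the start, the last an alternative chosen after seeing the data. These follow from how many peaks each rule admits. At a minimum of 3 subpeaks the share was 70.1% for all members and 69.0% for endothelial genes, against 68.1% of all merged peaks. At a minimum of 6 it was 5.84% for all members, against 5.12% of all merged peaks. By class it was 7.69% for astrocyte, 8.33% for oligodendrocyte lineage, 3.45% for endothelial and 5.56% for mural genes, each from very few peaks. Without Pdgfrb the mural median was 1.5 sites. No paired analysis was possible because the lists carry no values per library, and for the same reason no library could be left out. The sorted cells' depth per library, which limits which weak sites were called, was not analysed here.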
